A study of Homo sapiens with 18 samples.

Results

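KMT2A and 7 genes that encode its fusion partners in acute leukaemia, AFF1, MLLT3, MLLT10, MLLT1, ELL, CREBBP and EP300, were examined for peaks of the DNA topoisomerases TOP2A and TOP2B in KG-1 cells, a human acute myeloid leukaemia line. The genes were chosen by name and not by a rule on their peaks, though with earlier results of these data known. Each was taken as a fixed span of the build hg19. All 8 genes were found, and their spans add up to 1175 kb, 0.0387% of the genome covered by the lists. They held 630 of 1399117 MACS peaks on chromosomes 1 to 22 and X, or 0.0450%, over 12 immunoprecipitated libraries. A peak was placed by its midpoint, and peak numbers are the only quantity compared, because the lists carry no read depth.

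The etoposide experiment holds 8 of these libraries, 2 for each antibody from cells given methanol (the vehicle) and 2 from cells given 100 µM etoposide, in both cases for 1 h. Another 4 libraries make up the mitoxantrone experiment, with untreated cells and each antibody in 1 library and, likewise, cells given 0.5 µM mitoxantrone for 1 h. Of the 18 samples, the 6 inputs were not analysed here. TOP2A was precipitated with 5 µg and TOP2B with 4 µg of antibody from crosslinked chromatin, and precipitates made with the same antibody were pooled before sequencing. One cell line was used, and nothing in the labels says that replicates 1 and 2 were separate cultures, so p-values reflect only how far these samples differ from each other, which could be technical.

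Lists differed widely in length. Under vehicle they held 214612 and 246985 TOP2A peaks (replicates 1 and 2) and 114671 and 294749 TOP2B peaks. Under etoposide they held 35932 and 192989 TOP2A peaks and 69773 and 102432 TOP2B peaks, so the TOP2A list of etoposide replicate 1 stood apart. In the mitoxantrone experiment the TOP2A lists held 109429 peaks untreated and 7584 with the drug, and the TOP2B lists 9259 and 702. Counts in genes were therefore read against the length of their own list or against the 1 Mb on either side of the gene in the same library.

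Type II topoisomerases pass one DNA duplex through a transient double-strand break in another, with the enzyme covalently bound to the cut ends. Etoposide and mitoxantrone are topoisomerase II poisons that keep the enzyme on the cleaved DNA. KMT2A, also called MLL, is a histone H3 lysine 4 methyltransferase that maintains HOX gene expression in blood progenitors, and its rearrangements are typical of leukaemias that arise after treatment with such drugs. The breaks gather in a breakpoint cluster region within the gene. AFF1 is a scaffold of the super elongation complex, which also holds the elongation factor ELL and the acyl-lysine readers MLLT3 (AF9) and MLLT1 (ENL). MLLT10 (AF10) is a cofactor of the histone H3 lysine 79 methyltransferase DOT1L, and CREBBP and EP300 are paralogous histone acetyltransferases.

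The spans were chr11:118307205-118397539 for KMT2A, chr4:87856154-88062206 for AFF1, chr10:21823101-22032556 for MLLT10 and chr22:41488614-41576081 for EP300, all on the plus strand. On the minus strand lay MLLT3 at chr9:20344968-20622514, MLLT1 at chr19:6210392-6279959, ELL at chr19:18553473-18632937 and CREBBP at chr16:3775056-3930121. Their lengths ran from 69.6 kb for MLLT1 to 278 kb for MLLT3. Exons and introns on hg19 were not used here.

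Peaks lay within 2 kb of the start of every one of the 8 genes, 25 in all. The list means alone would place 1.84 peaks in each such window over the 12 libraries. TOP2A gave 13 and TOP2B gave 12, and 24 of the 25 also held a site from the second caller, SISSRs. All came from the etoposide experiment, where the list means would place 13.4 of the 14.8 peaks expected over the 12 libraries. At the density of the flanks, 15.9 peaks were expected in these windows over the 8 libraries of that experiment, so the observed number was 1.57 times the flank density (95% interval 1.02 to 2.32 for counting error only). With the 4 libraries of the mitoxantrone experiment included, it was 1.44 times (0.935 to 2.13). For each antibody alone in the etoposide experiment the interval included 1, at 1.48 times for TOP2A (0.787 to 2.53) and 1.69 times for TOP2B (0.875 to 2.96). Starts of other genes were not counted here. Windows of the same width at the gene ends, added after the starts had been seen, held 17 peaks in the 8 libraries, 1.07 times the flank density (0.623 to 1.71). Of the 8 end windows, 6 held a peak in the etoposide experiment and all 8 over the 12 libraries. The interval for starts and that for ends overlap, and the difference between them was not tested.

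**Figure D1:**
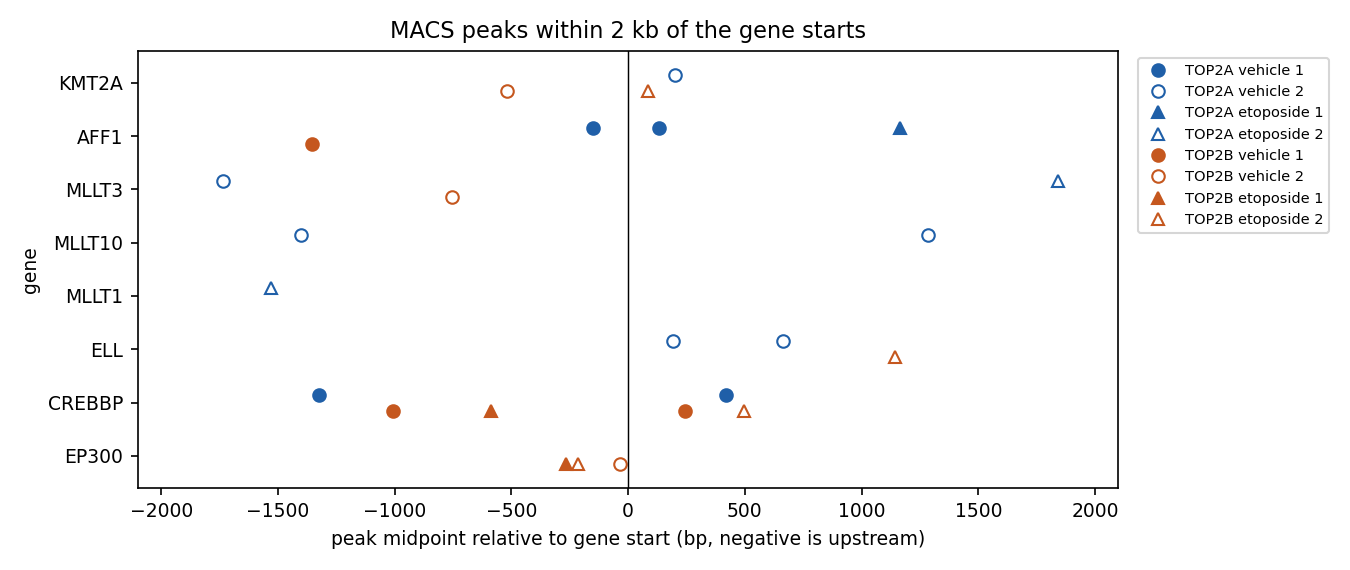
Midpoints of the 25 MACS peaks within 2 kb of the 8 gene starts, with the distance from the start in bp on the horizontal axis (negative is upstream) and 1 row per gene. Each point is 1 peak, coloured by antibody, and the 3 EP300 peaks are all TOP2B peaks within 265 bp upstream of the start. Those of MLLT10 and MLLT1 are all TOP2A peaks.

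Near the start of EP300, 3 TOP2B libraries each had 1 peak, at 35 bp (vehicle 2), 265 bp (etoposide 1) and 214 bp (etoposide 2) upstream, and no TOP2A library had any. The list means would place only 7.28 TOP2A peaks over all 8 start windows of the etoposide experiment. MLLT10 and MLLT1 in turn had TOP2A peaks only, so no difference between the antibodies can be read from 1 start. The etoposide peaks at chr22:41488292-41488407 and chr22:41488351-41488450 overlapped by 57 bp. At KMT2A, a TOP2A vehicle 2 peak at chr11:118307225-118307592 enclosed a TOP2B etoposide 2 peak at chr11:118307241-118307340, 203 and 85 bp downstream, and a TOP2B vehicle 2 peak lay 519 bp upstream. These peaks stood low in their own lists, at the 30.6th, 21.0th and 21.8th percentile of the authors' score. CREBBP had the most, 6 peaks from 4 libraries between 1324 bp upstream and 498 bp downstream. Of these, a TOP2A vehicle 1 peak and a TOP2B etoposide 2 peak overlapped by 26 bp.

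At AFF1, TOP2A vehicle 1 had peaks 150 bp upstream and 134 bp downstream of the start, at the 67.8th and 78.4th percentile, TOP2A etoposide 1 had a peak 1163 bp downstream, and TOP2B vehicle 1 had a peak 1352 bp upstream. ELL had 2 TOP2A vehicle 2 peaks 191 and 665 bp downstream and a TOP2B etoposide 2 peak 1145 bp downstream, which was the one without a SISSRs site. MLLT3 had 3 peaks, a TOP2A vehicle 2 peak 1737 bp and a TOP2B vehicle 2 peak 753 bp upstream, and a TOP2A etoposide 2 peak 1840 bp downstream. The 2 MLLT10 peaks were both from TOP2A vehicle 2, 1401 bp upstream and 1283 bp downstream. MLLT1 had a single peak, from TOP2A etoposide 2, 1530 bp upstream and at the 91.0th percentile. Apart from the overlapping pairs at KMT2A, CREBBP and EP300, the peaks of different libraries near a start lay at different places.

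The 250 bases before the start of EP300 and AFF1 are shown because peaks lay in them, and those of KMT2A for comparison because none did. The sequences are those of RefSeq on GRCh38.p14, where all 8 genes were matched by symbol, and starts there may differ by some bases from those of the hg19 spans. They are written 5′ to 3′ on the strand of the gene, with CG dinucleotides in capitals. EP300 is chr22:41092342-41092591 on the plus strand, AFF1 chr4:86934761-86935010 on the plus strand and KMT2A chr11:118436242-118436491 on the plus strand.
EP300: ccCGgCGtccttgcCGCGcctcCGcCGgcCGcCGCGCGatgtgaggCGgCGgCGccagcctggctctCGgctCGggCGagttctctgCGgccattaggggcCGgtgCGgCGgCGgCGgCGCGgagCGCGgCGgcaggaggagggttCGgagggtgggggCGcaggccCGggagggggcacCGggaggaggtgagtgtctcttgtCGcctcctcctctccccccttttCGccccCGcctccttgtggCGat
AFF1: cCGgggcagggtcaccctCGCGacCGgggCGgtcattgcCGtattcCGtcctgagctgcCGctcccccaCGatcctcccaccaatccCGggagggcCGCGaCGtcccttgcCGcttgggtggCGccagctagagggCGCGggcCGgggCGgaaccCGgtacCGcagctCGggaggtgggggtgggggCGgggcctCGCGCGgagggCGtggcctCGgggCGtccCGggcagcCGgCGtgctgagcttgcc
KMT2A: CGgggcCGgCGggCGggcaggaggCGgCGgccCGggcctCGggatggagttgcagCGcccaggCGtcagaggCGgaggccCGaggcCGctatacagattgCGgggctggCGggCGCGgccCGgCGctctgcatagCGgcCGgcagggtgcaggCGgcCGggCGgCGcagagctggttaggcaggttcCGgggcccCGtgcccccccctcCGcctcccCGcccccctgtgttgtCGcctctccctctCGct
EP300 held 35 CG dinucleotides, AFF1 32 and KMT2A 31. The 8 genes ranged from 24 (MLLT3) to 46 (CREBBP), against a median of 11 and a 90th percentile of 31 over 35116 RefSeq promoters of the same length. The letters GGGCGG, the core of a GC box, were found on either strand in 7 of the 8, all but EP300, and in 42.6% of all promoters. CCAAT was found on either strand in AFF1, MLLT3 and MLLT1, and in 32.0% of all promoters, and TATAAA in none of the 8 against 10.7% of all.

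Over whole spans, no gene was denser in peaks than its flanks in all 8 libraries of the etoposide experiment, and none was less dense in all 8. The same ratio was taken for 28149 tiles of 100 kb with a mean of at least 2 peaks, a filter not set on the genes. Of these tiles, 0.682% were denser in all 8 libraries and 0.892% less dense in all 8. Tiles have a fixed length and the genes run from 69.6 to 278 kb, so counting error differs between them. None of the 64 ratios, 1 for each gene and library, had a 95% interval that excluded 1, against 3.1% of tile intervals, and 34 of the 64 ratios were above 1. With SISSRs sites in these 8 libraries 1 interval excluded 1, that of ELL in TOP2A vehicle 1, at 0.248 times (0.0298 to 0.907). The matching share of tile intervals with SISSRs sites was not counted. The median ratio over the 8 libraries lay between 0.731 for ELL and 1.30 for MLLT1, and the tiles' medians had a 5th to 95th percentile range of 0.648 to 1.36. When the 2 libraries of each group were summed, 2 of 32 intervals excluded 1, against 4.4% of tile intervals. These were KMT2A for TOP2B under vehicle and AFF1 for TOP2A under etoposide, both above their flanks. Sums were taken of MACS peaks only.

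**Figure D2:**
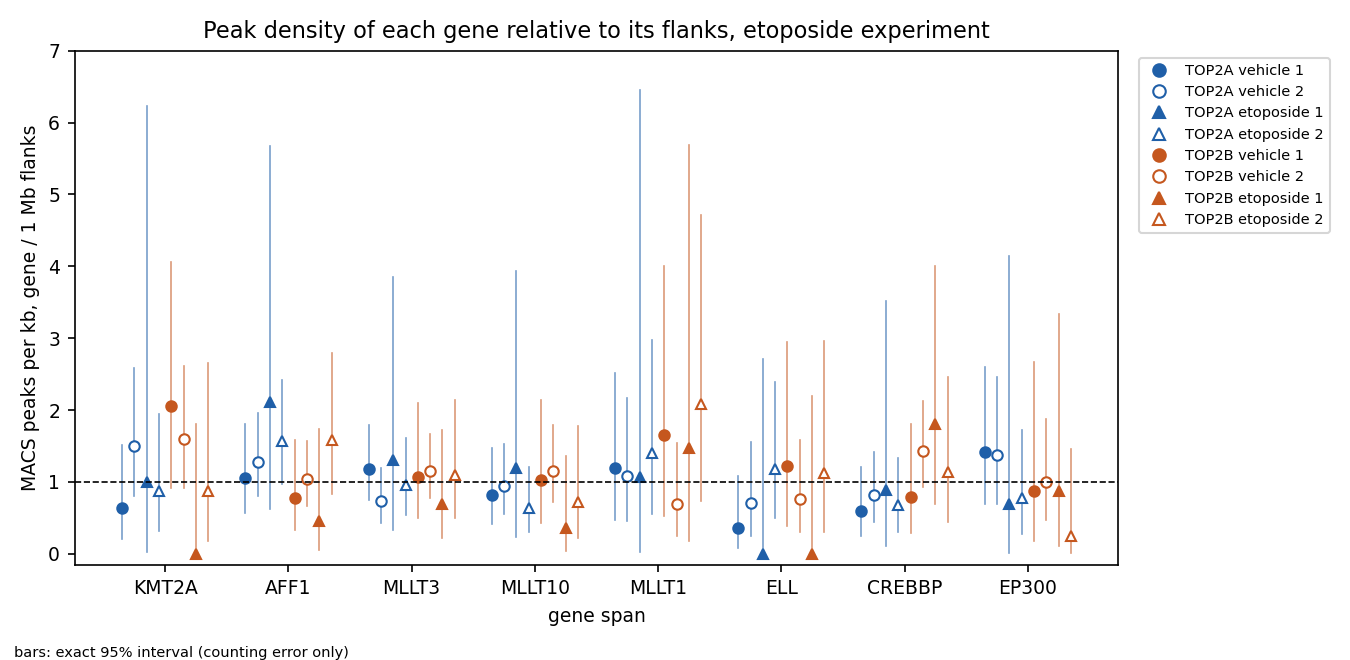
MACS peaks per kb in each gene divided by peaks per kb in the 1 Mb flanks, for the 8 libraries of the etoposide experiment (colour is the antibody, symbol the treatment, fill the replicate). Bars are exact 95% intervals for counting error only, and all 64 include the dashed line at 1, where gene and flanks are equal.

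In KMT2A the TOP2A lists held 5 and 14 peaks under vehicle (replicates 1 and 2) and 1 and 6 under etoposide. TOP2B lists held 9 and 17 peaks under vehicle and 0 and 3 under etoposide, but both vehicle lists were also longer than both etoposide lists. The genome-wide density of each list would place 3.41 and 8.77 TOP2B peaks in the span under vehicle, and 2.08 and 3.05 under etoposide. TOP2B density under vehicle was 2.05 times that of the flanks in replicate 1 (95% interval 0.912 to 4.06) and 1.59 times in replicate 2 (0.914 to 2.61). Summed over both, 26 peaks in the gene against 333 in the flanks gave 1.73 times (1.11 to 2.58). Under etoposide, 3 against 123 gave 0.54 times (0.110 to 1.62). The TOP2A sums were 1.11 times the flanks under vehicle (0.659 to 1.75) and 0.891 times under etoposide (0.353 to 1.87).

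As a share of its list, KMT2A held 0.785 and 0.577 of every 10000 TOP2B peaks under vehicle, and 0 and 0.293 under etoposide. Both etoposide values were lower than both vehicle values, as in 18.2% of 100 kb tiles. The log2 difference, with a prior of 0.5 peaks, was -2.74 (SE 0.917), with an unadjusted limma p of 0.00663 and a Benjamini-Hochberg adjusted p of 0.932 over 27607 features. It did not pass the threshold of 0.05, and it was called once the library of etoposide replicate 2 was left out (log2 difference -4.49, adjusted limma p 8.93e-05), which leaves etoposide replicate 1, with 0 peaks, as the lone drug library. Without etoposide replicate 1 it was -1.12 and not called (adjusted limma p 0.474). Over the 10 other settings the value ran from -2.80 to -1.74 with adjusted p from 0.664 to 0.998. A fitted fold change for a gene with 0 peaks in a library depends on the prior, and the SISSRs list of TOP2B etoposide 1 held 1 site in KMT2A. For TOP2A the shares were 0.233 and 0.567 under vehicle and 0.278 and 0.311 under etoposide, and these groups overlapped (log2 difference -0.29, SE 0.558). That value was -1.95 at a MACS score of at least 100 and ran from -0.88 without vehicle replicate 1 to 0.30 without vehicle replicate 2, never called.

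Within the 10 kb breakpoint window of KMT2A, chr11:118352000-118362000, 5 peaks were listed over the 8 libraries of the etoposide experiment, in 4 of the libraries. The density of the lists would place 4.19 there. The mean over the 8 libraries was 0.625 peaks per 10 kb in the window against 0.778 in the remaining 80.3 kb of the gene, which held 50 peaks, a ratio of 0.803 (95% interval 0.250 to 2.00). All 5 also held a SISSRs site, and no library of the mitoxantrone experiment had a peak in the window.

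Under vehicle, TOP2A replicate 2 had window peaks at chr11:118359608-118359735 and chr11:118361871-118361998, with 60 and 86 tags in their SISSRs sites. TOP2B vehicle 1 had one at chr11:118353910-118354025 (96 tags) and TOP2B vehicle 2 one at chr11:118361868-118361998 (46 tags). The peaks at the distal edge in TOP2A vehicle 2 and TOP2B vehicle 2 overlapped and shared the SISSRs site chr11:118361852-118361991. Their midpoints lay 0.066 and 0.067 kb inside the window. Of the 4 etoposide libraries, only TOP2B replicate 2 had a peak in the window, at chr11:118352709-118352808 (66 tags), which no other window peak overlapped. A count of 0 in a library has an upper 95% limit of 3.69 peaks, above every expected count in the window, so no absence of either enzyme can be read from it.

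**Figure D3:**
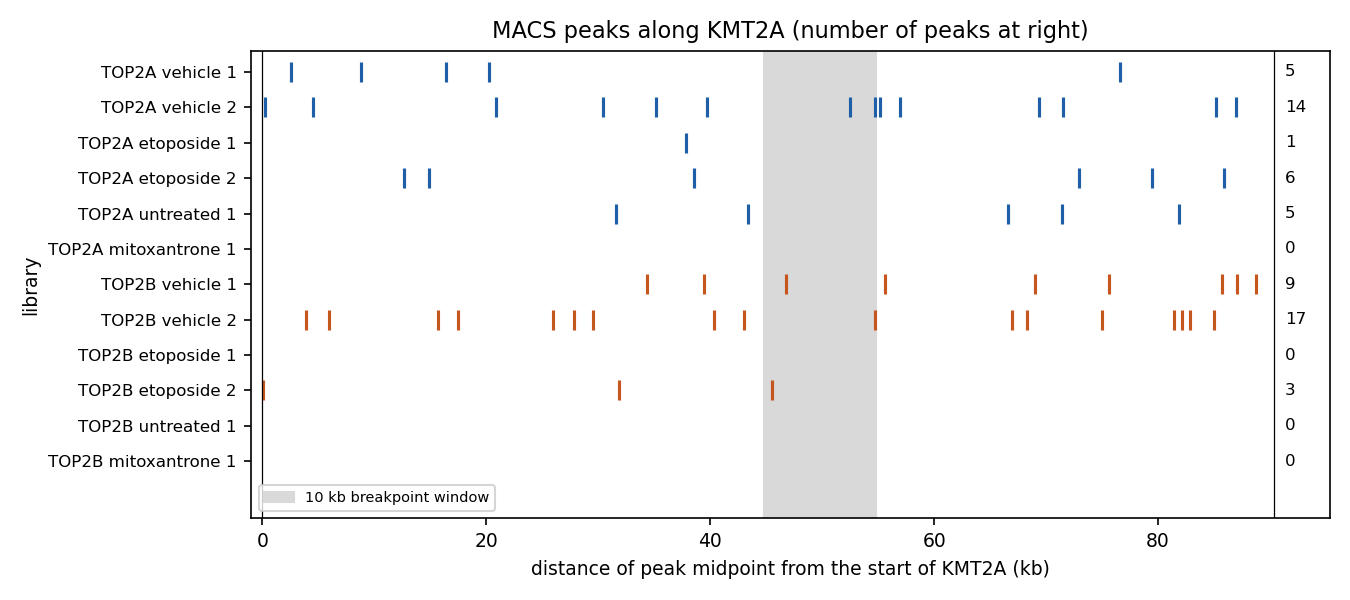
Positions of all 60 MACS peaks along KMT2A, with the distance from the gene start in kb on the horizontal axis, 1 row per library and the number of peaks at the right. The grey band is the 10 kb breakpoint window, which holds 5 peaks, and the vertical lines mark the gene start and end.

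Of the super elongation complex genes, AFF1 held 15 and 25 TOP2A peaks under vehicle and 5 and 24 under etoposide, and 8 and 25 TOP2B peaks under vehicle and 2 and 14 under etoposide. It was above its flanks in 6 of 8 libraries, with a median ratio of 1.17, and 11.9% of tiles were above theirs in 6 or more. With SISSRs sites, AFF1 was also below its flanks in TOP2A vehicle 1 (0.949 times). Its TOP2A sum under etoposide, 29 peaks against 172 in the flanks, was 1.64 times the flank density (95% interval 1.06 to 2.44), and under vehicle 1.19 times (0.833 to 1.65). With SISSRs sites the ratio of TOP2A etoposide replicate 1 was 1.01 (0.314 to 2.53), against 2.11 with MACS peaks. That of replicate 2 was 1.52 (0.933 to 2.37), against 1.56. Of every 10000 TOP2A MACS peaks, AFF1 held 0.699 and 1.01 under vehicle and 1.39 and 1.24 under etoposide. Both etoposide values were higher than both vehicle values, as in 13.6% of tiles. With SISSRs sites the groups overlapped. Relative to the mean density of each SISSRs list, AFF1 was at 0.894 and 1.45 under vehicle and 1.14 and 1.77 under etoposide. The log2 difference of the MACS shares, 0.63 (SE 0.447, adjusted limma p 0.884), did not pass the threshold. For TOP2B the MACS shares under etoposide were 0.287 and 1.37, on both sides of the vehicle values of 0.698 and 0.848.

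MLLT1 held 7 and 8 TOP2A peaks under vehicle and 1 and 7 under etoposide, and 5 and 6 TOP2B peaks under vehicle and 2 and 6 under etoposide. It was above its flanks in 7 of 8 libraries, all but TOP2B vehicle 2 at 0.696 times, and 3.53% of tiles were above theirs in 7 or more. Its median ratio of 1.30 was the highest of the 8 genes. With SISSRs sites, MLLT1 was also below its flanks in TOP2A vehicle 2 (0.954 times) and TOP2A etoposide 1 (0.669 times). The MACS ratio of the latter library rests on 1 peak. MLLT3, the longest gene, held 26 and 18 TOP2A peaks under vehicle and 4 and 17 under etoposide, and 10 and 33 TOP2B peaks under vehicle and 5 and 10 under etoposide. Its ratios, 0.693 to 1.31, kept the narrowest range. ELL held 3 and 6 TOP2A peaks under vehicle and 0 and 8 under etoposide, and 5 and 7 TOP2B peaks under vehicle and 0 and 4 under etoposide. Both of its zeros were in etoposide replicate 1, and for TOP2A the 95% interval there reached 2.72 times the flank density. The SISSRs lists of these libraries held 1 site in ELL for TOP2A and 2 for TOP2B. The log2 differences of ELL, -0.92 for TOP2A (SE 1.94) and -1.56 for TOP2B (SE 1.29), did not pass the limma test, and both were called once etoposide replicate 2 was left out (-2.84 with adjusted p 0.00174, and -3.50 with adjusted p 0.0351), which leaves the library with 0 peaks as the only one with the drug. Without etoposide replicate 1, both were above 0 and uncalled, at 1.07 and 0.25.

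MLLT10 held 12 and 19 TOP2A peaks under vehicle and 3 and 10 under etoposide, and 8 and 23 TOP2B peaks under vehicle and 2 and 5 under etoposide. Of every 10000 TOP2B peaks it held 0.698 and 0.780 under vehicle and 0.287 and 0.488 under etoposide. Both etoposide values were lower than both vehicle values, as in 18.2% of tiles, and the log2 difference was -0.92 (SE 0.507, adjusted limma p 0.932). Against its flanks, the TOP2B sum was 1.12 times under vehicle (95% interval 0.747 to 1.63) and 0.562 times under etoposide (0.221 to 1.19). The TOP2A shares overlapped between the groups.

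Of the acetyltransferase genes, CREBBP held 8 and 14 TOP2A peaks under vehicle and 2 and 9 under etoposide, and 6 and 28 TOP2B peaks under vehicle and 7 and 7 under etoposide. It was below its flanks in all 4 TOP2A libraries (0.596 to 0.889 times) and above them in 3 of 4 TOP2B libraries, vehicle 2 and both under etoposide (1.14 to 1.81 times). Of the tiles, 8.65% were below theirs in all 4 TOP2A libraries and 27.3% above theirs in at least 3 TOP2B libraries, and every interval of CREBBP included 1. The share of tiles with both was not counted. With SISSRs sites, CREBBP was above its flanks in TOP2A etoposide 1 (1.12 times) and below them in TOP2B etoposide 2 (0.955 times). EP300 held 11 and 12 TOP2A peaks under vehicle and 1 and 6 under etoposide, and 3 and 10 TOP2B peaks under vehicle and 2 and 1 under etoposide. Of every 10000 TOP2A peaks it held 0.513 and 0.486 under vehicle and 0.278 and 0.311 under etoposide. Both etoposide values were lower than both vehicle values, as in 20.3% of tiles. The log2 difference of EP300 was -0.71 (SE 0.582, adjusted limma p 0.884). Under vehicle its TOP2B share minus its TOP2A share was -0.70 on the log2 scale and that of CREBBP 0.59, with an adjusted limma p of 0.972 for both.

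**Figure D4:**
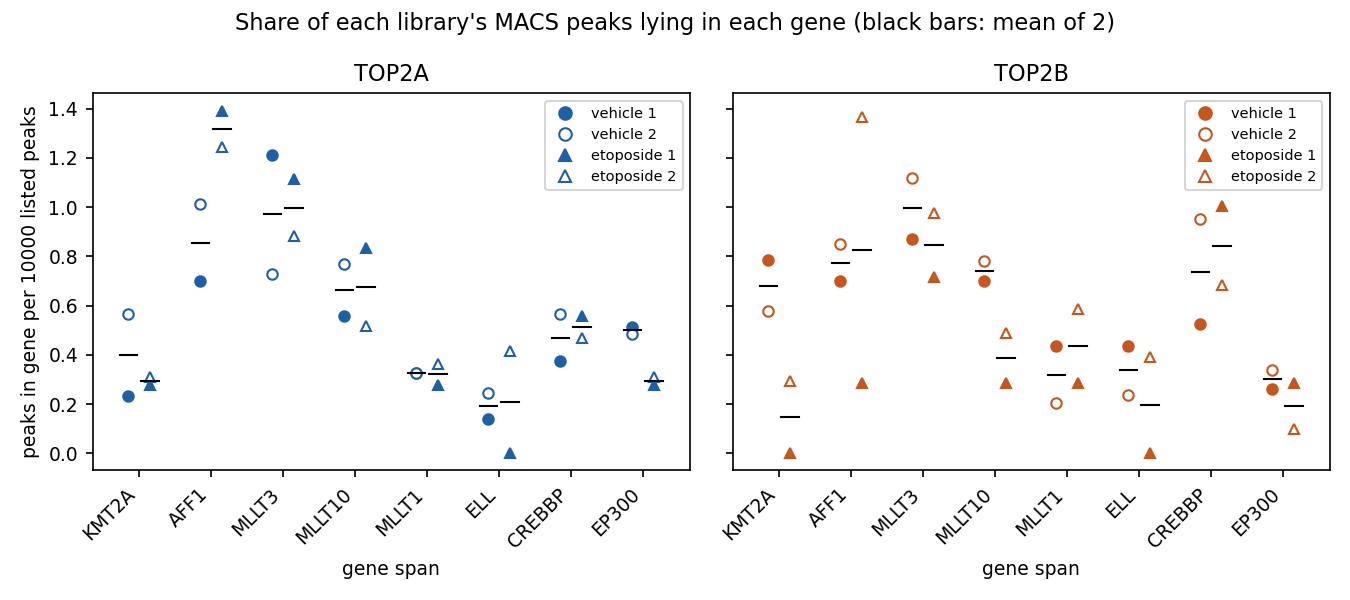
MACS peaks in each gene per 10000 peaks of the same list, for TOP2A on the left and TOP2B on the right. Each point is 1 library (circles vehicle, triangles etoposide, filled replicate 1, open replicate 2) and black bars are means of 2. In the TOP2B panel both etoposide values of KMT2A and MLLT10 lie below both vehicle values, as in 18.2% of 100 kb tiles.

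Etoposide was compared with vehicle for each antibody in limma over all tiles and the 8 genes, at an adjusted p of 0.05. For TOP2A, 0 of the 8 genes were called against 0.00711% of all 28142 features, and no gene had an unadjusted p under 0.05, as 1065 features did. For TOP2B, 0 of the 8 were called against 0% of features, and 1 gene, KMT2A, was among the 1069 features with an unadjusted p under 0.05. Without the filter on low counts limma called 29 features for TOP2A and 28 for TOP2B, none of them a gene of the set. The median log2 difference of the 8 genes was -0.01 for TOP2A, with 4 genes higher and 4 lower, beside -0.16 over all tiles, of which 57.1% were lower. For TOP2B it was -0.48, with 2 higher and 6 lower, beside -0.08 over all tiles, of which 54.4% were lower.

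Counting only whether the groups overlapped, EP300 was lower for TOP2A in both etoposide libraries than in both vehicle libraries, as were 20.3% of tiles, and AFF1 was higher, as were 13.6%. With SISSRs sites the AFF1 groups overlapped. KMT2A and MLLT10 were the 2 genes lower for TOP2B, as were 18.2% of tiles, and no gene was higher, as were 15.3%. The other 6 genes overlapped for each antibody. The etoposide effect on TOP2B minus that on TOP2A, a fit added after the data had been seen, was called for 0 of 28157 features, with 799 at an unadjusted p under 0.05. For KMT2A it was -2.51 on the log2 scale, with an unadjusted limma p of 0.0938 and an adjusted p of 0.929.

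TOP2B was also compared with TOP2A in the vehicle libraries, which are the same libraries as in the etoposide comparisons. None of the 8 genes was called, against 0% of 28408 features, and 1289 features had an unadjusted p under 0.05. KMT2A had the largest difference, 0.84 higher for TOP2B on the log2 scale (SE 0.446, unadjusted limma p 0.0673, adjusted p 0.972), followed by ELL at 0.73. The KMT2A value was 0.24 without TOP2A vehicle replicate 1 and 1.44 without TOP2A vehicle replicate 2, and with SISSRs sites ELL was ahead of it, at 1.08 against 0.78. The median over the 8 genes was 0.12, beside -0.02 over all tiles, with 5 genes higher and 3 lower.

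Few places in the genes carried a peak in more than 1 or 2 libraries. Peaks of the 12 libraries that overlapped by at least 1 bp merged into 569 regions, of which 514 came from 1 library, 52 from 2 and 3 from 3 or more. One of the 3 lay in AFF1 at chr4:88030643-88031241, 175 kb from the start, with peaks of 4 TOP2A libraries, vehicle 1, both under etoposide and the untreated one, and no TOP2B library. Another lay in EP300 at chr22:41508697-41509212, 20.3 kb from the start, with peaks of TOP2A etoposide 2, TOP2A untreated, and both TOP2B vehicle libraries. The last lay in MLLT1 at chr19:6236367-6237141, 43.2 kb from the start, with peaks of TOP2A vehicle 1, etoposide 2 and the untreated library. There the vehicle 1 and etoposide 2 peaks did not overlap each other and were joined by the untreated peak of 699 bp. In AFF1 the untreated peak overlapped only that of etoposide 2, and in EP300 the TOP2A etoposide 2 peak overlapped only the untreated one, so at most 3 libraries overlapped each other at either. Within their lists the scores of these peaks ranked at percentiles 10.5 to 82.4 in AFF1, 19.8 to 72.1 in EP300 and 16.6 to 49.9 in MLLT1. KMT2A had 5 regions with peaks of 2 libraries and none of 3.

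In the etoposide experiment, 98 of 580 peaks in the genes overlapped a peak of another of the 12 libraries, 16.9% (exact 95% interval 13.9 to 20.2), beside 15.2% in the flanks (14.4 to 16.0). MLLT1 stood above its flanks, with 13 of 42 peaks, 31.0% (17.6 to 47.1), against 11.3% (9.42 to 13.4). CREBBP had the lowest share, 7 of 81 peaks, 8.64% (3.55 to 17.0), against 15.9% in its flanks (13.8 to 18.2). These intervals cover counting error only, and MLLT1 was singled out after the values of all 8 had been seen. Both peaks of an overlapping pair count as shared, so the peaks are not independent and the intervals are too narrow. The shared peaks of MLLT1 lay in 6 regions with peaks of 2 libraries and 1 of 3 or more. With each gene split into 3 equal stretches from start to end, the first held 195 peaks in sum, the middle 195 and the last 190. Of the 580, 561 (96.7%) held a SISSRs site, beside 25 of 50 in the mitoxantrone experiment, where the median peak width was 511 bp against 124 bp.

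With 1 library per group, mitoxantrone and untreated cells have no replicate check. The 8 genes held 47 TOP2A peaks in untreated cells, at least 4 in each, and 2 with mitoxantrone, both in MLLT3. As shares of the lists, which held 109429 and 7584 peaks, this was a ratio of 0.614 (95% interval 0.0722 to 2.34 for counting error only), so a change of the genes relative to the rest of the list was not detectable at this number of peaks. For TOP2B, 1 peak, in AFF1, was listed in untreated cells and none with the drug. The list means would place 3.58 and 0.272 TOP2B peaks in the 8 genes, too few to compare. Against the flanks, TOP2A SISSRs sites of untreated cells gave 4.70 times for MLLT1 (95% interval 2.04 to 9.60) and 0.120 times for AFF1 (0.0030 to 0.687). With MACS peaks of the same library both intervals included 1, at 2.09 times (0.550 to 5.66) and 0.826 times (0.347 to 1.70).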

How the data were processed

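Per the submitters' processing notes, the tools were Bowtie2 2.2.5, bedtools 2.26.0 and MACS 1.4, and the build was hg19. The authors deposited, for each library, a MACS list whose score is the authors' own value, and a SISSRs list with, for every site, a tag count, a fold enrichment and a p-value (identified from the values, since there is no header). Each library was called separately. Caller settings, input handling and read depth were not given in the sources used here. Scores only ranked or filtered peaks within a list, and the fold and p-value were not used.

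Peaks on chromosomes 1 to 22 and X were counted by midpoint in the 8 genes, their 1 Mb flanks and 100 kb tiles. Density ratios have exact conditional binomial 95% intervals and counts exact Poisson ones, for counting error only. Log2 peaks per 10000 listed peaks (prior of 0.5 peaks scaled by list length) were compared with limma 3.58.1 (trend, robust) in R 4.3.3 over tiles with a mean of at least 2 peaks plus the genes, with Benjamini-Hochberg adjustment. The limma step was tested on simulated data. Python 3.11.15 with pandas 2.3.3 and scipy 1.17.1 did the rest.

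The genes, the lists and the tests were chosen with earlier results of these data known. All 8 genes are named, with every peak in the breakpoint window, every peak within 2 kb of a gene start, and up to 3 merged regions per gene with peaks of at least 3 libraries. Alternatives were SISSRs sites, a score of at least 100, other priors, tiles, flanks, spans and weights, no filter, any overlap, 1 fit of 8 libraries, a replicate block and each library left out. Other fusion partners had no hg19 position at hand and were not analysed here.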

Additional observations from a re-analysis of the deposited data

How the results depend on the processing

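In the etoposide comparisons 0 genes were called in every setting that kept all 4 libraries. Leaving out 1 library gave 0 to 1 gene for TOP2A and 0 to 2 for TOP2B, and each call came without etoposide replicate 2: for TOP2A, ELL at a log2 difference of -2.84 (adjusted limma p 0.00174), and for TOP2B, KMT2A at -4.49 (8.93e-05) and ELL at -3.50 (0.0351). These fits assume that the lone drug library varies like the vehicle ones, and they called 11383 of 27934 features for TOP2A and 1561 of 27843 for TOP2B. Without TOP2B etoposide replicate 1, 78 features were called, and in the vehicle comparison 686 without TOP2B vehicle replicate 2 and 1 without replicate 1. The main counts of called features, 2 for TOP2A, 0 for TOP2B and 0 between the antibodies, became 29, 28 and 1 without the filter. For TOP2A they were 0 with SISSRs sites, a score of at least 100, 200 kb tiles, voom weights or 1 fit of 8 libraries, and 1 with an unscaled prior. TOP2A also gave 0 without either vehicle library and 1 without etoposide replicate 1. TOP2B gave 7 at a score of at least 100, 5 with voom weights and 1 with an unscaled prior.

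Same-numbered libraries did not deviate together (correlations 0.0160, -0.0259 and 0.0187 over tiles), and the labels do not say what a number marks. The list of replicate 1 was shorter than that of replicate 2 in all 4 groups, and of the regions in the genes with peaks of 1 TOP2A and 1 TOP2B library, 15 had the same number and 5 different ones, so a shared source cannot be told from these lists. With the replicate block, 0 genes were called in each comparison, and 50, 0 and 0 features. Of 336 alternative log2 differences of the genes, 303 kept their direction and stayed uncalled, 30 changed sign without being called, and 3 were the calls above. Genes above their flanks in every library numbered 0, and 1 without replicate 1 (AFF1) or without replicate 2 (MLLT1). With fewer libraries this is a weaker condition, and the share of tiles that meet it was not counted. Of 64 alternative median ratios to the flanks, 63 moved by less than the spread over libraries, and that of ELL was 0.183 without replicate 2. Breakpoint window peaks numbered 5 in every setting. At a score of at least 100 the TOP2A mitoxantrone ratio was 0 (3 peaks untreated, 0 with the drug), and the TOP2B lists gave no value there. Peaks per gene, 0 to 33 a library, limit all of these values, since a list gives no depth at places without a peak.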
